A study of Mus musculus with 12 samples.

Results

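The genes described here are 10 that mouse myoblasts use to hold on to each other and to fuse: Mymk, Mymx, Cdh15, Cdh2, Jam2, Jam3, Cdon, Ncam1, Itgb1 and Myof. They were taken by gene symbol from a table of 54532 genes, and each symbol matched 1 gene. All 10 were among the 16038 genes that had enough counts to be tested. Messenger RNA was sequenced from C2C12, a mouse skeletal muscle cell line whose cells are named as myoblasts. Confluent dishes had been given perfluorooctanesulfonate (PFOS), a long-lived fluorinated industrial compound, at 0, 2 or 6 µM for 24 h, with 4 libraries at each dose and 12 in all. The 0 µM dishes carry no agent in the labels, so whether they received a vehicle is not known. The labels do not say that the libraries of a dose were separate cultures, so the p-values measure the spread between libraries, which may be technical.

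Skeletal muscle fibres form when mononucleated myoblasts line up, adhere through cadherins, immunoglobulin-superfamily proteins and integrins, and merge their membranes. Myomaker (Mymk) and myomixer (Mymx) are the muscle-specific membrane proteins that drive the merging itself. They are switched on as myoblasts leave the cell cycle and differentiate, under myogenic factors such as Myod1 and Myog, whereas most adhesion molecules are already present in proliferating myoblasts.

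Library totals ran between 30206155 counts at 0 µM (replicate 4) and 50351082 counts at 2 µM (replicate 2). The myoblast label was compared with markers: Des (217 to 278 CPM, counts per 1000000 counts of a library), Myod1 (21.8 to 32.9 CPM) and Chrna1 (42.3 to 62.8 CPM) were present in every library, while the satellite cell factor Pax7 stayed at 0.379 CPM or lower. Among markers of other cell types, Adipoq was at 0 in all libraries, and the highest values were 0.09997 CPM for Ptprc, 0.277 CPM for Pecam1 and 0.102 CPM for Epcam. Some genes of these lists were present in every library, with 6.45 to 10.4 CPM for the macrophage marker Cd14, 4.34 to 6.80 CPM for the endothelial Cdh5, 17.7 to 23.0 CPM for the epithelial Krt14 and 13.9 to 25.6 CPM for the neural Tubb3. In the fibroblast list the collagen gene Col3a1 reached 2261 to 2927 CPM. Pdgfra (17.6 to 23.6 CPM) and Dcn (1.75 CPM or higher) of that list were also present in every library. Fap was at 0 in all libraries, and the highest values were 0.177 CPM for Thy1, 0.293 CPM for Lum and 0.982 CPM for Dpt. The libraries that lay farthest from the others of their dose were 6 µM replicates 2 and 3 and 0 µM replicate 1.

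At 6 µM, 4 of the 10 genes differed from 0 µM: Jam2, Cdh15 and Cdon fell and Ncam1 rose, with changes of 1.12- to 1.33-fold. Both fusogen genes had lower means at 6 µM, but neither passed the test. When the 3 deviating libraries named above were left out, none of the 10 genes was called in this comparison. That fit kept only replicates 1 and 4 at 6 µM and lacked 0 µM replicate 1, so it rested on fewer libraries, and its power was not computed. Of the 16912 genes tested in it 4.2% were called, against 8.24% of 16038 with all 12 libraries. The log2 fold changes were then -0.26 for Jam2 (-0.41 with all libraries), -0.22 for Cdh15 (-0.26), -0.11 for Cdon (-0.17) and 0.15 for Ncam1 (0.17). Calls rest on the quasi-likelihood test of edgeR, at a p under 0.05 after Benjamini-Hochberg adjustment, and among all tested genes 4.58% were called higher and 3.66% lower in this comparison. The median log2 fold change was -0.08 over the 10 genes and -0.02 over all tested genes. At 2 µM against 0 µM none of the 10 genes was called by edgeR, and both DESeq2 and limma-voom gave 0 calls. Before adjustment 4 genes had p under 0.05 with edgeR, but the share of all tested genes under that cut was not computed. Of all tested genes, 1.61% were called higher and 0.742% lower at that dose, that is 258 and 119 genes, or 184 and 134 genes with upper-quartile scaling. These counts were 518 and 224 with DESeq2, 139 and 64 without 0 µM replicate 2, 188 and 56 without 0 µM replicate 3, 157 and 56 without 2 µM replicate 2, and 72 and 34 without 2 µM replicate 4. At 6 µM against 2 µM edgeR again called none of the 10 genes, with 2 at p under 0.05 before adjustment, whereas Cdon was the 1 gene called, as lower, by DESeq2 and also by limma-voom. The edgeR background there was 0.561% higher and 0.549% lower among adjusted calls, and none was computed for p before adjustment. In either direction DESeq2 called 2.77% and limma-voom 1.48% of all tested genes in this comparison, against 1.11% with edgeR. The comparisons of 2 and of 6 µM with 0 µM share the 0 µM libraries and are not independent of each other. In such bulk RNA, fewer cells of a type and less RNA per cell cannot be told apart.

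**Figure D1:**
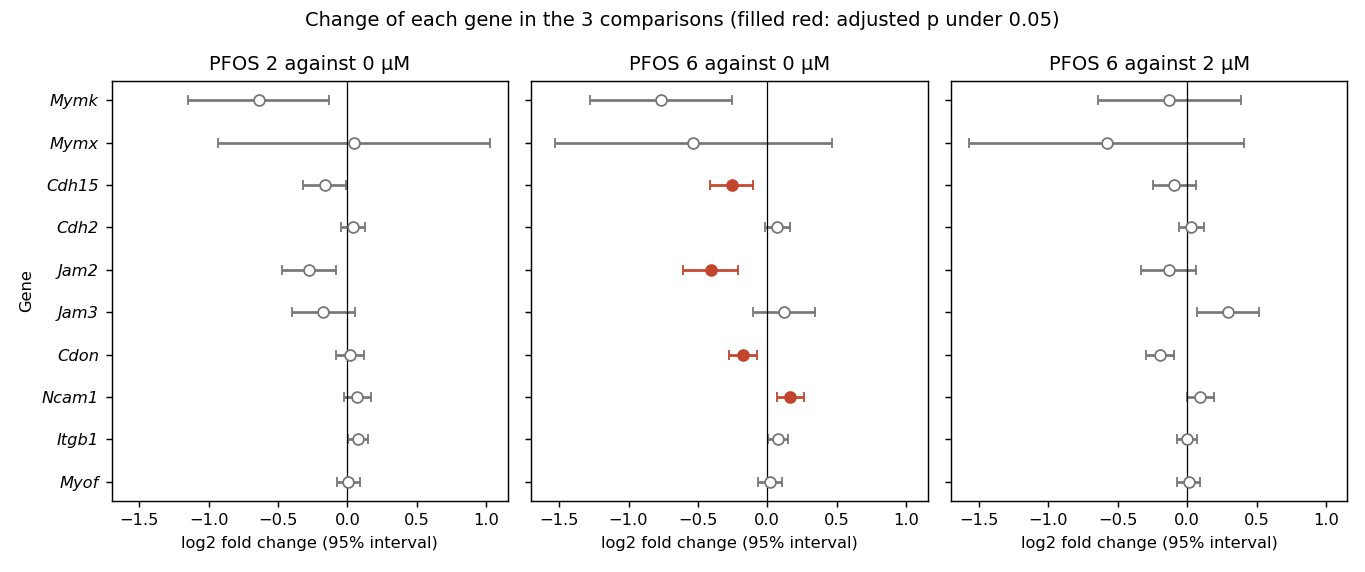
Log2 fold change (x axis) of each of the 10 genes (y axis) in the 3 comparisons, 2 against 0 µM, 6 against 0 µM and 6 against 2 µM, with 95% intervals from the edgeR fit. Filled red points passed an adjusted p of 0.05: Cdh15, Jam2 and Cdon lie below 0 and Ncam1 above 0, all in the comparison of 6 with 0 µM, and the intervals of Mymk and Mymx are the widest.

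Promoter windows were looked up for the 10 genes in a RefSeq table on GRCm38.p6, each running 250 bases upstream to 50 bases downstream of a transcript start, and 4 genes matched: Cdh15, Cdon, Itgb1 and Myof. Cdh15 and Cdon are printed because both fell at 6 µM. Capitals mark E-boxes (CANNTG, a palindromic pattern read the same on both strands), the motif that myogenic basic helix-loop-helix factors such as Myod1 and Myog bind together with their E-protein partners.
Cdh15 promoter, chr8:122848124-122848423, plus strand: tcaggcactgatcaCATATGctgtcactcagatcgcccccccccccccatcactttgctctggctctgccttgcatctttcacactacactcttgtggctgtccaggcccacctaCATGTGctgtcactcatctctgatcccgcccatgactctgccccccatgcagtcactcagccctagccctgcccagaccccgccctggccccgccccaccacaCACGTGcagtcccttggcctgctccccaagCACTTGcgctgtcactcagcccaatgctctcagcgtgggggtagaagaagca
Cdon promoter, chr9:35451826-35452125, plus strand: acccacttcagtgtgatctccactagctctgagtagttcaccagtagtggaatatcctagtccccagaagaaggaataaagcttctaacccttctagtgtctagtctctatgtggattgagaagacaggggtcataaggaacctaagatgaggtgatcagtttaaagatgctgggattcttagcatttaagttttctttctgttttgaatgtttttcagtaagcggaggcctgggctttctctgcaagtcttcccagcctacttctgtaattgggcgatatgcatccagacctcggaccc

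The Cdh15 window held 4 E-boxes, which began at -236, -135, -32 and -2 counted from the start site as 0. Across 32851 RefSeq windows of this length, 72.3% held at least 1 E-box, with a median of 1 per window. None of the Cdh15 matches was CAGCTG or CACCTG, forms found in 16.3% and 20.2% of all windows. The windows of Cdon, Itgb1 and Myof held no E-box in these 300 bases. The Cdh15 start site lies 408 bases inside the gene as the count table places it, where no transcript of the GENCODE annotation used here begins, and the Cdon start site lies 30948 bases inside, at the start of the transcript Cdon-201. Reads were counted per gene, so the start that each gene used in these cells was not measured.

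Mymk (ENSMUSG00000009214, chr2:27061636-27072179 on GRCm38, minus strand) encodes the multipass membrane protein that both fusing cells need. Its level was 4.87, 3.66, 4.35 and 4.46 CPM in replicates 1 to 4 at 0 µM, 3.56, 2.28, 1.99 and 3.30 CPM at 2 µM, and 1.499, 2.80, 2.13 and 3.76 CPM at 6 µM. All 4 libraries at 2 µM and 3 of 4 at 6 µM were below every 0 µM library, and 6 µM replicate 4 lay within the 0 µM range. Mean Mymk was 2.55 ± 0.968 CPM at 6 µM and 4.34 ± 0.502 CPM at 0 µM (SD, n = 4 each), a log2 fold change of -0.77 (SE 0.247, edgeR adjusted p = 0.0574). At 2 µM it was 2.78 ± 0.766 CPM, a log2 fold change of -0.64 against 0 µM (SE 0.245, edgeR adjusted p = 0.212). These are the largest differences of the 10 genes, but they also had wide intervals, -1.28 to -0.26 at 6 µM. Mymk had 65 to 174 counts per library. Against 0 µM, Mymk passed the threshold at 6 µM in only 5 of 21 alternative fits. These were DESeq2 (adjusted p = 0.0259), limma-voom (0.0364), no count filter (0.0244) and the fit without 2 µM replicate 3 (0.0498). The other left out 6 µM replicate 4 (0.0164, log2 fold change -1.01). Over the 21 fits the log2 fold change ran from -1.01 to -0.58, and the adjusted p reached 0.292.

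Mymx (ENSMUSG00000079471, chr17:45600971-45602102, minus strand) encodes the micropeptide that works with myomaker at the fusion pore. It was the least abundant of the 10 genes, with 11 to 55 counts per library. Its level was 0.704, 0.931, 1.07 and 0.847 CPM in replicates 1 to 4 at 0 µM, 1.09, 0.902, 1.10 and 0.598 CPM at 2 µM, and 0.254, 0.271, 0.555 and 1.40 CPM at 6 µM. At 6 µM, 3 libraries were below every 0 µM library and replicate 4 was above all of them. The mean was 0.619 ± 0.537 CPM at 6 µM and 0.889 ± 0.155 CPM at 0 µM (SD, n = 4 each), with a log2 fold change of -0.53 (95% interval -1.53 to 0.46, edgeR adjusted p = 0.575). Without 6 µM replicate 4 the log2 fold change was -1.30. The same library, 6 µM replicate 4, was the highest of its dose for Mymk and Mymx alike.

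**Figure D2:**
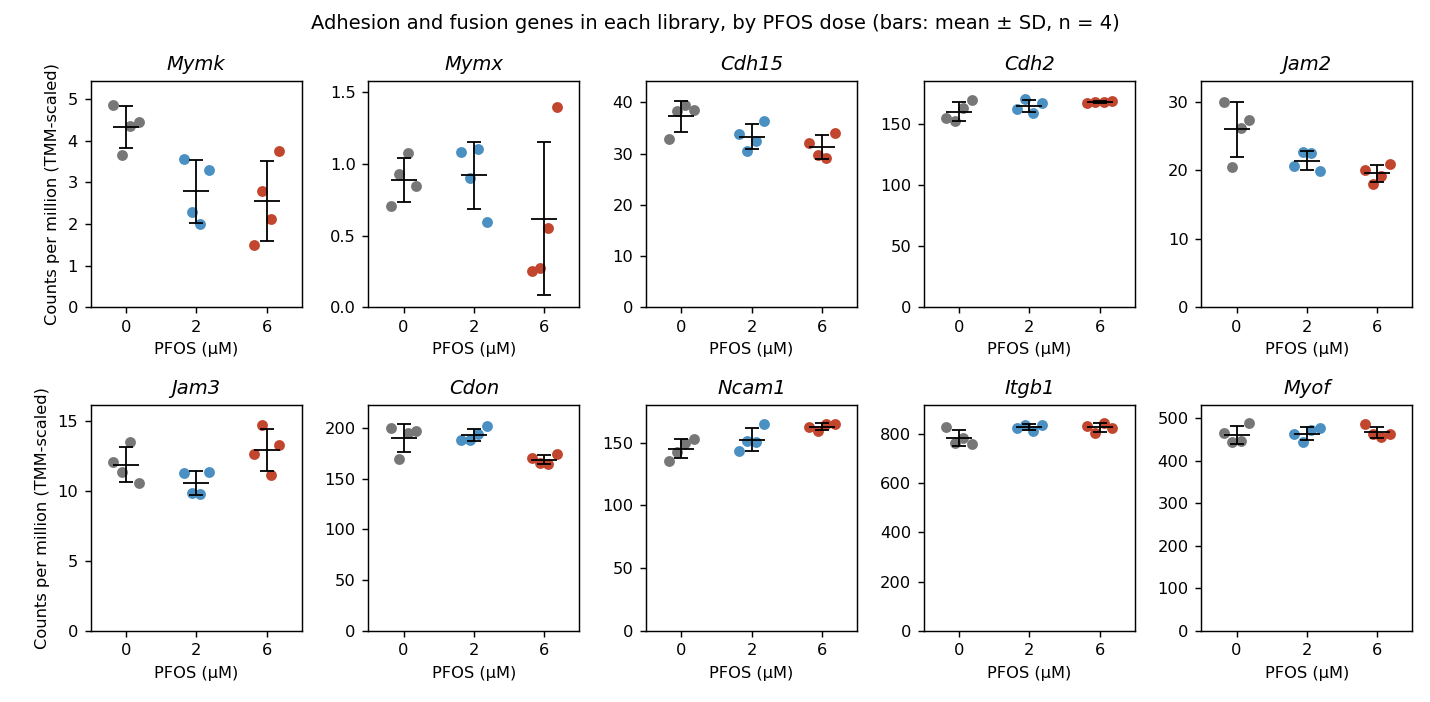
TMM-scaled CPM (y axes, starting at 0) of the 10 genes in each library at 0, 2 and 6 µM PFOS (x axes), with the mean and SD of 4 libraries. Mymk sits between 1.99 and 3.56 CPM at 2 µM and between 3.66 and 4.87 CPM at 0 µM, 1 library at 6 µM stands high for Mymx, and the 4 Ncam1 points at 6 µM lie above those at 0 µM.

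Of the cadherins, Cdh15 fell and Cdh2 was not called. Cdh15 (ENSMUSG00000031962, chr8:122847966-122867397, plus strand) encodes M-cadherin, which is largely restricted to the muscle lineage. It had 32.8, 38.4, 39.5 and 38.6 CPM in replicates 1 to 4 at 0 µM, 33.9, 30.5, 32.5 and 36.4 CPM at 2 µM, and 32.1, 29.7, 29.1 and 34.1 CPM at 6 µM. Of the 6 µM libraries 3 were below every 0 µM library, and the fourth overlapped only with 0 µM replicate 1, which was the low one of its dose. The means were 31.3 ± 2.29 CPM at 6 µM and 37.3 ± 3.03 CPM at 0 µM (SD, n = 4 each), giving a log2 fold change of -0.26 (SE 0.0753, edgeR adjusted p = 0.0369), or 1.19-fold lower. At 2 µM the log2 fold change of Cdh15 was -0.16 (edgeR adjusted p = 0.315). The call at 6 µM was lost in 7 of the 12 fits that each left out 1 library. Adjusted p-values were 0.0969 without 0 µM replicate 2, 0.118 without replicate 3 and 0.0762 without replicate 4 of that dose. They were 0.0508 without 2 µM replicate 3, and 0.064, 0.0924 and 0.128 when 6 µM replicate 1, 2 or 3 was left out. It was also lost when the 2 µM libraries were left out of the fit (0.0558) and without the 3 most deviating libraries (0.155).

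Cdh2 (ENSMUSG00000024304) encodes N-cadherin, a classical cadherin of many tissues including muscle. Its level was 155.6, 152.7, 163.4 and 170.0 CPM in replicates 1 to 4 at 0 µM, 162.6, 171.0, 159.3 and 167.6 CPM at 2 µM, and 167.9, 168.5, 168.7 and 169.5 CPM at 6 µM. The 6 µM libraries lay within the range of the 0 µM libraries and close together. The means were 168.6 ± 0.647 CPM at 6 µM and 160.4 ± 7.80 CPM at 0 µM (SD, n = 4 each), with a log2 fold change of 0.07 (95% interval -0.02 to 0.16, edgeR adjusted p = 0.351).

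The junctional adhesion molecules bind each other across cells, and in zebrafish the pair is needed for fast muscle precursors to fuse. Jam2 (ENSMUSG00000053062, chr16:84774123-84825928, plus strand) had the smallest adjusted p of the 10 genes. It had 30.0, 20.5, 26.2 and 27.4 CPM in replicates 1 to 4 at 0 µM, 20.6, 22.7, 22.5 and 19.95 CPM at 2 µM, and 19.99, 18.1, 19.2 and 20.99 CPM at 6 µM. The 6 µM libraries were all low, but 0 µM replicate 2 was also low and lay inside their range. Mean Jam2 was 19.6 ± 1.24 CPM at 6 µM and 26.0 ± 4.01 CPM at 0 µM (SD, n = 4 each), a log2 fold change of -0.41 (SE 0.0957, edgeR adjusted p = 0.00918), or 1.33-fold lower. That call held in all 12 fits that left out 1 library (adjusted p between 0.000675 and 0.0356), but without the 3 most deviating libraries it was lost, at -0.26 (adjusted p = 0.232). At 2 µM the log2 fold change was -0.28 (SE 0.0953, edgeR adjusted p = 0.15), which became -0.38 (adjusted p = 0.0299) without 0 µM replicate 2.

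Jam3 (ENSMUSG00000031990, chr9:27097384-27155421, minus strand) had 12.1, 11.4, 13.5 and 10.6 CPM in replicates 1 to 4 at 0 µM, 11.3, 9.88, 9.75 and 11.4 CPM at 2 µM, and 12.6, 14.7, 11.1 and 13.3 CPM at 6 µM. The doses overlapped. The log2 fold change was 0.12 at 6 µM against 0 µM (95% interval -0.10 to 0.35, edgeR adjusted p = 0.569) and 0.29 at 6 µM against 2 µM (SE 0.108, edgeR adjusted p = 0.23). An antisense gene, Gm48796, overlaps Jam3, and since the strand setting of the counting is not given, its reads cannot be told from those of Jam3. It held 0 to 36 counts in a library, which came to 2.6% of the Jam3 counts over all libraries and to 7.3% in the library with the highest share. Among the other members the highest share of an overlapping gene in a library was 1.33%, for Jam2, and no other gene overlapped Mymk, Mymx, Itgb1 or Myof.

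Cdon (ENSMUSG00000038119, chr9:35421128-35507652, plus strand) encodes an immunoglobulin-superfamily co-receptor that sits in complexes with cadherins and promotes myogenic differentiation. It had 199.8, 169.7, 194.9 and 197.4 CPM in replicates 1 to 4 at 0 µM, 188.7, 188.3, 194.5 and 201.7 CPM at 2 µM, and 170.3, 165.9, 164.5 and 174.3 CPM at 6 µM. All 6 µM libraries lay below all 2 µM libraries, whereas against 0 µM they overlapped with replicate 2, which stood well below the other 0 µM libraries. Mean Cdon was 168.7 ± 4.43 CPM at 6 µM and 190.5 ± 14.01 CPM at 0 µM (SD, n = 4 each), a log2 fold change of -0.17 (SE 0.0487, edgeR adjusted p = 0.0278), or 1.13-fold lower. Against 2 µM, where Cdon averaged 193.3 ± 6.28 CPM (SD, n = 4), the log2 fold change at 6 µM was -0.20 (SE 0.0486), just short of the threshold with an edgeR adjusted p of 0.0506. That comparison passed in 8 of 21 alternative fits. These were DESeq2 (adjusted p = 0.0084), limma-voom (0.038), no count filter (0.0112) and a mean count of at least 50 (0.041). The others were the fits without the 0 µM libraries (0.00999) and without 0 µM replicate 1 (0.0345), 2 (0.0135) or 4 (0.0427). Over the 21 fits the log2 fold change ran from -0.21 to -0.16, and the adjusted p reached 0.24. At 2 µM against 0 µM the log2 fold change was 0.02 (95% interval -0.08 to 0.12, edgeR adjusted p = 0.893), and -0.03 without 0 µM replicate 2.

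The fall of Cdon against 0 µM was lost in 6 of the 12 fits that each left out 1 library. Adjusted p-values were 0.0716 without 0 µM replicate 1, 0.0856 without replicate 3 and 0.0669 without replicate 4 of that dose, and 0.0613, 0.0656 and 0.0986 when 6 µM replicate 1, 2 or 3 was left out. It was lost as well without the 2 µM libraries (0.0642), and without the 3 most deviating libraries the log2 fold change was -0.11 (adjusted p = 0.354).

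Ncam1 (ENSMUSG00000039542, chr9:49502136-49798925, minus strand), the neural cell adhesion molecule that myoblasts also carry, was the 1 gene of the 10 that rose. It had 135.7, 142.2, 149.5 and 152.6 CPM in replicates 1 to 4 at 0 µM, 143.2, 151.2, 150.4 and 164.8 CPM at 2 µM, and 162.3, 159.1, 164.9 and 164.6 CPM at 6 µM. Every 6 µM library was above every 0 µM library, and the 2 µM libraries lay across both. Mean Ncam1 was 162.7 ± 2.67 CPM at 6 µM and 145.0 ± 7.57 CPM at 0 µM (SD, n = 4 each), a log2 fold change of 0.17 (SE 0.0479, edgeR adjusted p = 0.0328), or 1.12-fold higher. The call was lost without 0 µM replicate 1 (adjusted p = 0.0865) or 2 (0.0806), without 6 µM replicate 1 (0.067), 3 (0.0783) or 4 (0.0784), without the 3 most deviating libraries (0.184), and with upper-quartile scaling (0.0517). At 2 µM against 0 µM the log2 fold change was 0.07 (95% interval -0.03 to 0.17, edgeR adjusted p = 0.539).

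Itgb1 (ENSMUSG00000025809, chr8:128685654-128733200, plus strand) encodes the integrin beta-1 chain, through which myoblasts hold on to the matrix and which mouse myoblasts need to fuse. It had 827.2, 761.8, 782.3 and 760.1 CPM in replicates 1 to 4 at 0 µM, 823.1, 835.4, 811.7 and 835.5 CPM at 2 µM, and 832.6, 802.3, 845.2 and 825.1 CPM at 6 µM. Apart from replicate 1, the 0 µM libraries lay below all others. The means were 826.3 ± 18.02 CPM at 6 µM and 782.9 ± 31.2 CPM at 0 µM (SD, n = 4 each), a log2 fold change of 0.08 (95% interval 0.01 to 0.15, edgeR adjusted p = 0.193). Without 0 µM replicate 1 the value was 0.11 and passed the threshold (adjusted p = 0.0492). The log2 fold change at 2 µM against 0 µM was also 0.08 (edgeR adjusted p = 0.302), and between 6 and 2 µM it ran from -0.0085 to 0.013 over all settings tried.

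Myof (ENSMUSG00000048612, chr19:37899036-38043577, minus strand) encodes myoferlin, a calcium-binding membrane protein of the ferlin family that is abundant in myoblasts about to fuse. It had 464.8, 443.1, 446.1 and 489.5 CPM in replicates 1 to 4 at 0 µM, 461.4, 442.8, 471.9 and 477.2 CPM at 2 µM, and 485.8, 463.1, 456.0 and 463.3 CPM at 6 µM. The doses overlapped throughout. The log2 fold change was 0.02 at 6 µM against 0 µM (95% interval -0.06 to 0.10, edgeR adjusted p = 0.834) and 0.01 at 2 µM against 0 µM (95% interval -0.08 to 0.09).

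Levels of different genes were compared as CPM per kilobase of the gene length in the table. At 0 µM, Itgb1 stood highest at 191.8 ± 7.64, followed by Myof at 36.6 ± 1.70, Cdon at 24.7 ± 1.82, Cdh2 at 19.9 ± 0.967, Ncam1 at 16.7 ± 0.874 and Cdh15 at 11.5 ± 0.933 per kilobase (SD, n = 4). The lower end held Jam2 at 4.30 ± 0.664, Jam3 at 3.71 ± 0.386, Mymk at 2.87 ± 0.332 and Mymx at 0.866 ± 0.151 per kilobase. Neighbours in this order did not overlap in any library, except Jam2 and Jam3. The same order and the same single overlap were found at 2 µM. At 6 µM, Jam3 (4.04 ± 0.464 per kilobase) stood above Jam2 (3.24 ± 0.204) with no overlap, the lowest Jam3 library being 3.48 and the highest Jam2 library 3.47, and Mymk (1.69 ± 0.641) overlapped with Mymx (0.603 ± 0.523). These levels assume that each gene is read over its whole annotated length, which was not tested.

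**Figure D3:**
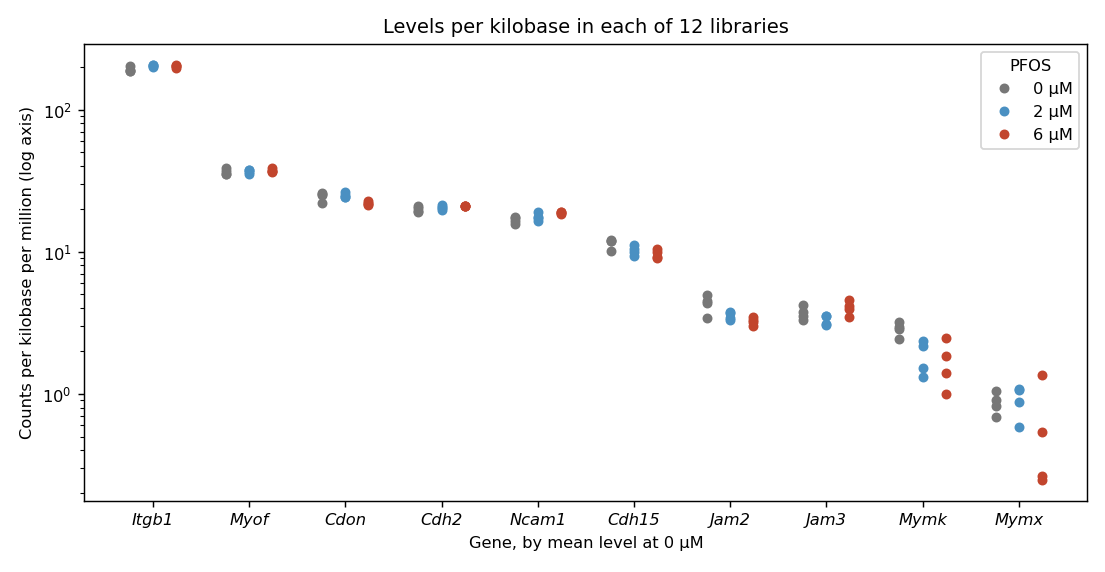
CPM per kilobase (y axis, log scale) of the 10 genes in each of the 12 libraries, ordered along the x axis by their mean at 0 µM and coloured by dose. The genes run from Itgb1 near 192 to Mymx near 0.866 at 0 µM, Jam2 and Jam3 lie side by side, and the spread is widest for Mymk and Mymx.

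Pairs of related genes were compared within each library, since the ratio of a pair of genes does not depend on how libraries are scaled. The log2 ratio of Jam2 to Jam3 counts was 0.66, 0.29, 0.79 and 0.66 in replicates 1 to 4 at 6 µM and 1.31, 0.85, 0.96 and 1.37 at 0 µM. Each 6 µM library was below each 0 µM library. The difference was -0.52 at 6 µM against 0 µM and -0.42 at 6 µM against 2 µM, where replicates 1 to 4 had 0.87, 1.20, 1.21 and 0.81 at 2 µM. Both reached p = 0.0286 in a two-sided exact permutation test, which is the smallest p that 4 against 4 libraries can give, and 0.0858 after Benjamini-Hochberg adjustment over the 9 pair comparisons.

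The log2 ratio of Cdh15 to Cdh2 was -2.39, -2.50, -2.53 and -2.31 in replicates 1 to 4 at 6 µM and -2.24, -1.99, -2.05 and -2.14 at 0 µM. These did not overlap, and the difference was -0.33 (exact permutation p = 0.0286, adjusted 0.0858). At 2 µM the Cdh15 to Cdh2 ratio differed from that at 0 µM by -0.20 on the log2 scale (exact permutation p = 0.0571, adjusted 0.128). The Mymk to Mymx ratio differed by 0.01 at 6 µM against 0 µM (exact permutation p = 0.971) and by -0.70 at 2 µM against 0 µM (exact permutation p = 0.143). No pair ratio passed the adjusted threshold, and the design could not have given a single smaller p.

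**Figure D4:**
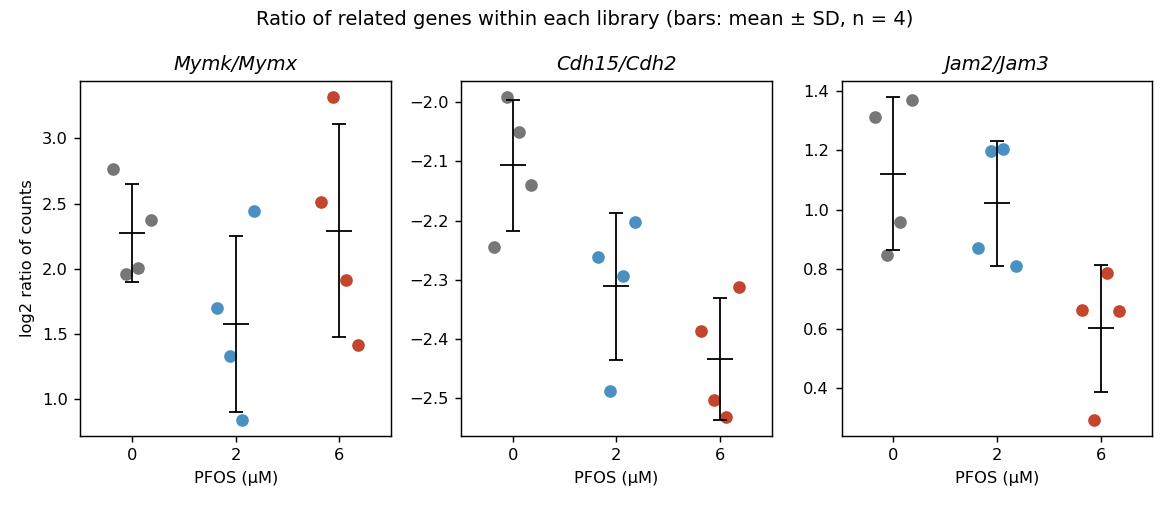
Log2 ratio of counts (y axes, which do not start at 0) of Mymk to Mymx, Cdh15 to Cdh2 and Jam2 to Jam3 in each library at 0, 2 and 6 µM PFOS (x axes), with the mean and SD of 4 libraries. The 6 µM points of Cdh15 to Cdh2 and of Jam2 to Jam3 lie below all 0 µM points, and the Mymk to Mymx ratio spreads over more than 1 log2 unit at 6 µM.

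Other genes of adhesion and fusion, and myogenic transcription factors, were read from 6 lists of 166 symbols, of which 138 were tested. At 6 µM against 0 µM, 14 of the 138 were called higher and 10 lower, with a median log2 fold change of 0.02. Over all tested genes 4.58% were called higher and 3.66% lower there. At 2 µM against 0 µM 3 of the 138 were higher and 3 lower (1.61% and 0.742% over all tested genes). At 6 µM against 2 µM 1 was higher and 1 lower (0.561% and 0.549%). The median of single lists at 6 µM against 0 µM was 0.01 for cadherins and catenins, 0.03 for immunoglobulin-superfamily molecules, -0.06 for integrins, 0.04 for actin genes and 0.04 for ferlins and membrane repair, beside -0.02 over all tested genes. The 16 tested myogenic factors held 1 of the 14 higher and 7 of the 10 lower calls at 6 µM against 0 µM.

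Among 11 other cadherins and catenins, Cdh13, the membrane-anchored T-cadherin, rose and the other 10 were not called. Cdh13 averaged 43.0 CPM at 6 µM against 37.0 CPM at 0 µM, a log2 fold change of 0.22 (SE 0.0605, edgeR adjusted p = 0.0283), and was 0.27 higher than at 2 µM (edgeR adjusted p = 0.0261). The 4 libraries at 6 µM were above all others, at 41.3 to 45.4 CPM. The call against 0 µM was lost without 0 µM replicate 2 (adjusted p = 0.0982) and without 6 µM replicate 1 (0.0981) or 4 (0.074). The call against 2 µM was lost without 2 µM replicate 1 (0.0662), 2 (0.0967) or 4 (0.0912) and without 6 µM replicate 1 (0.108) or 4 (0.0939).

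Among 19 other immunoglobulin-superfamily molecules and co-receptors, Neo1, Alcam and Cadm1 rose and Gas1 fell at 6 µM against 0 µM, and 15 were not called. Neo1, a netrin receptor that Cdon can bind, averaged 172.1 CPM at 6 µM and 148.0 CPM at 0 µM (log2 fold change 0.22, SE 0.0462, edgeR adjusted p = 0.00403). Gas1, a membrane-anchored hedgehog co-receptor, averaged 63.8 CPM at 6 µM and 83.2 CPM at 0 µM (log2 fold change -0.38, SE 0.0540, edgeR adjusted p = 6.92e-05). These calls held in all 21 alternative fits. Gas1 also fell at 2 µM, to 69.4 CPM (log2 fold change -0.26, edgeR adjusted p = 0.0114), a call lost without 2 µM replicate 4 (0.0675). Boc, the closest relative of Cdon, averaged 25.2 CPM at 2 µM and 20.7 CPM at 0 µM, and rose there by a log2 fold change of 0.28 (edgeR adjusted p = 0.0455), while at 6 µM it was 0.16 (edgeR adjusted p = 0.193). The call of Boc was lost in 10 of the 12 fits that left out 1 library, up to an adjusted p of 0.208 without 2 µM replicate 4, and held without 2 µM replicate 3 or 6 µM replicate 2. Cadm1, a cell adhesion molecule of many tissues, rose by a log2 fold change of 0.19 at 6 µM (edgeR adjusted p = 0.0178), a call lost without 0 µM replicate 3 (0.0751) and without 6 µM replicate 1 (0.0607) or 4 (0.0551).

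Of 30 other integrins and their partners inside the cell, Itga6 and Tln1 rose at 6 µM against 0 µM and 28 were not called. Itga6, a laminin-binding alpha chain that pairs with the Itgb1 product, averaged 47.5 CPM at 6 µM and 37.2 CPM at 0 µM (log2 fold change 0.35, SE 0.0667, edgeR adjusted p = 0.00169). Tln1, whose product talin joins integrins to actin, averaged 1012 CPM at 6 µM and 877 CPM at 0 µM (log2 fold change 0.21, SE 0.0408, edgeR adjusted p = 0.00234). Both calls held in all 21 alternative fits, whereas Itgb1 itself was not called. At 2 µM, Tln1 was higher by a log2 fold change of 0.16 (edgeR adjusted p = 0.0356) and the tetraspanin Cd9 was lower, at 313.4 CPM against 352.2 CPM at 0 µM (log2 fold change -0.17, edgeR adjusted p = 0.0261). Each of these calls was lost in 5 of the 12 fits that left out 1 library. For Tln1 these were 0 µM replicates 1 (adjusted p = 0.0646) and 2 (0.116) and 2 µM replicates 1 (0.0539), 3 (0.0878) and 4 (0.172). For Cd9 they were 0 µM replicates 2 (0.0865) and 3 (0.0853) and 2 µM replicates 2 (0.0847), 3 (0.073) and 4 (0.135).

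Of 41 genes of actin remodelling at the fusion site, 4 rose at 6 µM against 0 µM and none fell. Among all tested genes 4.58% were called higher and 3.66% lower there. The 4 genes were Wipf2, which binds the actin nucleation promoter N-WASP, the formins Diaph1 and Diaph3, and the membrane-severing GTPase Dnm2. The named values were small, with log2 fold changes of 0.22 for Wipf2 (edgeR adjusted p = 0.0192), 0.16 for Diaph3 (0.0322) and 0.16 for Dnm2 (0.0429). Without the 3 most deviating libraries neither Wipf2 (0.0572) nor Dnm2 (0.269) was called. Wipf2 was also not called without 0 µM replicate 2 (0.0663) or 6 µM replicate 4 (0.0553). Diaph3 was no longer called without 0 µM replicates 2 (0.066), 3 (0.0742) or 4 (0.0827) or 6 µM replicates 1 (0.064), 2 (0.094) or 4 (0.0839). Dnm2 was no longer called in 8 fits, those without 0 µM replicates 1 (0.117), 3 (0.076) or 4 (0.0514), 2 µM replicates 2 (0.0558) or 4 (0.0552), or 6 µM replicates 1 (0.125), 2 (0.0686) or 3 (0.0947). Diaph3 was the 1 gene of the list called at 2 µM, at 175.1 CPM against 151.4 CPM at 0 µM (log2 fold change 0.21, edgeR adjusted p = 0.0194), and that call was lost without 0 µM replicate 4 (0.0532) or 2 µM replicates 2 (0.0775) or 4 (0.0758).

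Of 21 other ferlins and genes of membrane repair and phosphatidylserine recognition, Dysf, Ehd1 and Capn2 rose and Cav1 and Anxa1 fell at 6 µM against 0 µM. Dysf encodes dysferlin, the ferlin of membrane repair in mature muscle, and averaged 15.2 CPM at 6 µM and 11.5 CPM at 0 µM (log2 fold change 0.40, SE 0.106, edgeR adjusted p = 0.0201). Its relative Myof was not called. Ehd1, an endocytic recycling factor, was higher by a log2 fold change of 0.18 (edgeR adjusted p = 0.0252) and the caveolar coat gene Cav1 lower, with a value of -0.16 (edgeR adjusted p = 0.00905). The call of Dysf was lost without 0 µM replicate 2 (0.08) and without 6 µM replicate 2 (0.0704) or 4 (0.0604). That of Ehd1 was lost without 0 µM replicate 1 (0.0551) or 3 (0.0774) and without 6 µM replicate 1 (0.106) or 3 (0.0592). The call of Cav1 held in all 12 such fits. None of Dysf (0.189), Ehd1 (0.0634) and Cav1 (0.11) was called without the 3 most deviating libraries.

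Of 16 myogenic transcription factors tested, 7 fell and 1 rose at 6 µM against 0 µM, and the median log2 fold change of the list was -0.32, against -0.02 over all tested genes. The fallen genes included Myod1 and Myog, the determination and differentiation factors that bind E-boxes, Mef2a and Mef2c, which act with them, the homeodomain factor Six4, and Id3, whose product blocks E-box binding. Mef2d rose. Mef2c averaged 42.7 CPM at 6 µM and 55.8 CPM at 0 µM (log2 fold change -0.38, SE 0.0629, edgeR adjusted p = 0.000393). Mef2a averaged 80.4 CPM at 6 µM and 97.9 CPM at 0 µM (log2 fold change -0.29, SE 0.0534, edgeR adjusted p = 0.00146). For both genes the libraries of these doses did not overlap, and the calls held in all 12 fits that left out 1 library, while Mef2a was not called without the 3 most deviating libraries (0.0573). Myog and Myod1 are named after their values were seen. Myog averaged 4.06 ± 0.236 CPM at 6 µM and 7.15 ± 1.249 CPM at 0 µM (SD, n = 4 each, log2 fold change -0.82, edgeR adjusted p = 0.00172). Myod1 averaged 23.2 ± 1.52 CPM at 6 µM and 30.3 ± 2.57 CPM at 0 µM (SD, n = 4 each, log2 fold change -0.38, edgeR adjusted p = 0.00333).

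Six4 differed between the doses, at 27.4 CPM at 6 µM and 33.8 CPM at 2 µM (log2 fold change -0.30, SE 0.0689, edgeR adjusted p = 0.0317). The libraries of these doses did not overlap, yet the call was lost without any 1 of the 8 libraries at 2 or 6 µM, with an adjusted p between 0.0594 and 0.125.

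**Figure D5:**
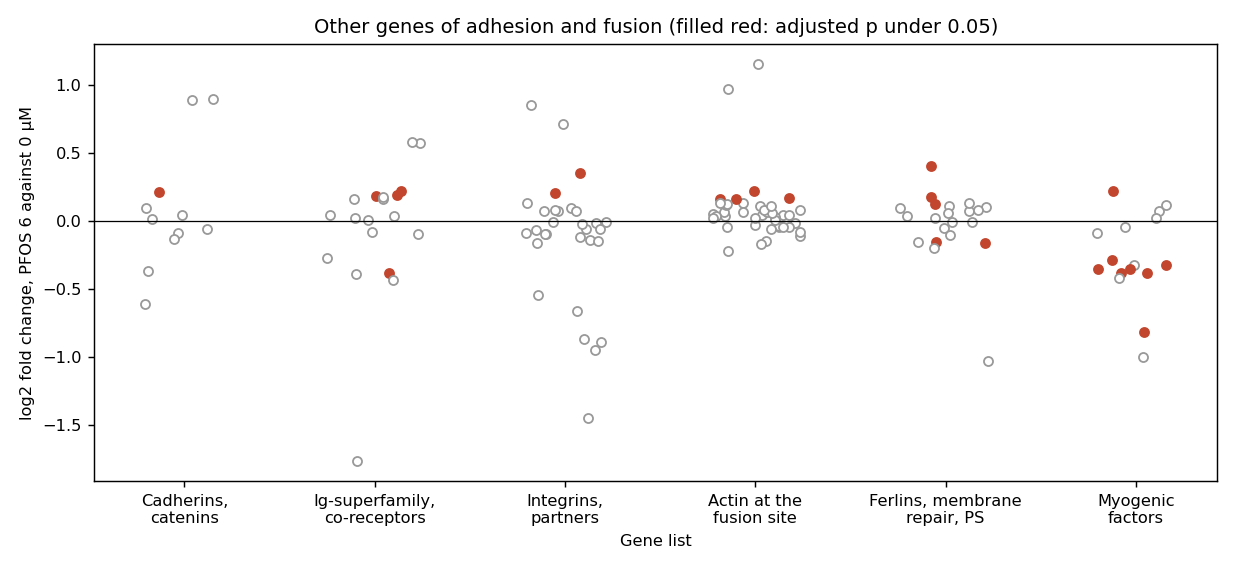
Log2 fold change at 6 µM against 0 µM (y axis) of each tested gene in the 6 lists (x axis), with genes of an adjusted p under 0.05 in filled red. Below 0 lie 7 red points of the myogenic factors and those of Gas1, Cav1 and Anxa1 in other lists, while the other called genes are above 0.

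Markers of differentiated myotubes moved in the same comparisons. Of 18 tested, 10 were called lower at 6 µM against 0 µM, where 3.66% of all tested genes were called lower. There were 2 lower calls at 2 µM against 0 µM and 1 at 6 µM against 2 µM, and no marker was called higher. Of all tested genes 0.742% and 0.549% were called lower in these 2 comparisons. Their summed level was 174.5 to 202.3 CPM at 0 µM, 145.3 to 166.1 CPM at 2 µM and 119.7 to 137.0 CPM at 6 µM, with no overlap between doses. The myoblast markers, which include Cdh15 and Myod1, summed to 341.4 to 414.2 CPM at 0 µM, 333.5 to 363.3 CPM at 2 µM and 314.3 to 346.7 CPM at 6 µM, with 3 of 5 tested genes lower at 6 µM against 0 µM. The fibroblast markers summed to 2655 to 2954 CPM at 0 µM, 2407 to 2688 CPM at 2 µM and 2287 to 2376 CPM at 6 µM, almost all of it Col3a1, which was called lower at both doses. No adipocyte marker had enough counts to be tested. None of the 3 of 7 macrophage and blood cell markers tested was called, nor the 1 of 5 for endothelium, the 1 of 5 for epithelium or the 3 of 6 for nerve and glia. The part of these shifts in the values of Mymk, Cdh15, Jam2 and Cdon was not tested.

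Genes whose level varied most like that of Mymk over the 12 libraries were Cd163, Daam2, Ckb, Fgfr4 and Srl. They were picked from 10870 tested genes by the root mean square difference in log2 CPM after each gene was centred on its own mean. That difference was 0.289 to 0.297 log2 units, against a spread of Mymk about its own mean of 0.502. For Jam2 the nearest genes were Mef2c, at 0.0916 log2 units, then Colec12, Pak3, Peg3 and Gt(ROSA)26Sor, up to 0.107, against a spread of Jam2 of 0.213. The likeness includes any difference between libraries that all genes share.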

How the data were processed

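Raw read counts, as whole numbers, were deposited for each gene in the 12 libraries in a single table. Reads were aligned with HISAT2 to GRCm39, per the submitters' processing notes. Neither its version nor the counting program and strand setting is given in the sources used here. In the table, however, 98.3% of 54409 genes shared with GENCODE M21 have that annotation's GRCm38 positions, so coordinates are named GRCm38.

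The tests used edgeR 4.0.16 (R 4.3.3): TMM scaling, filterByExpr by dose, 1 mean per dose over all libraries (9 residual degrees of freedom), quasi-likelihood test, and a call at a Benjamini-Hochberg adjusted p under 0.05 over 16038 genes. CPM use TMM-scaled library sizes. Among the 6 µM libraries the SD was 38.0% of the mean for Mymk and 86.7% for Mymx, and the source of this spread was not tested. Pair ratios added 0.5 counts and used exact permutation tests. The fit was also run on counts simulated from its own estimates of mean and spread. These held no deviating libraries, so they cannot show how calls behave with such libraries. DESeq2 1.42.0, limma-voom 3.58.1, other scalings and filters, a replicate block and the omission of libraries were tried as alternatives. Members and lists were chosen with earlier results of these data known. Named list genes were the up to 3 called genes of smallest adjusted p per list at 6 against 0 µM and the up to 2 in each other comparison; the 5 genes most like Mymk and like the member of smallest adjusted p were also named. The values of 1 gene that the rule picked are not reported here.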

Additional observations from a re-analysis of the deposited data

Results flagged for a closer look

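In 28 genes, each of the 84 groups of 4 libraries was examined for a library whose gap to the nearest other, divided by the range of the group, was above Dixon's 95% critical value. That happened in 7 groups, and chance alone gives such gaps in about 1 in 20 groups. For the members, Cdh15 had 32.8 CPM in 0 µM replicate 1 beside 38.4 to 39.5 CPM in the other 0 µM libraries. Cdon had 170 CPM in 0 µM replicate 2 beside 195 to 200 CPM in the others.

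For the other genes, Dnm2 had 130 CPM in 2 µM replicate 1 beside 138 to 139 CPM in the others of its dose. Cav1 had 668 CPM in 0 µM replicate 1 beside 610 to 616 CPM, and 612 CPM in 2 µM replicate 2 beside 580 to 586 CPM. Ehd1 had 145 CPM in 0 µM replicate 2 beside 132 to 134 CPM. Mef2a had 77.8 CPM in 6 µM replicate 3 beside 81.1 to 81.3 CPM.

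The response differed between the doses, by the direct edgeR test of 6 against 2 µM, for Cdh13 with a log2 fold change of 0.27 and for Six4 with -0.30. Their adjusted p-values were 0.0261 and 0.0317.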

How the results depend on the processing

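Fits used other scalings (RLE and upper-quartile), DESeq2, limma-voom, no count filter, a mean count of at least 50 (which dropped Mymx), a replicate block, only the 2 doses compared, the data without 0 µM replicate 1 and 6 µM replicates 2 and 3, and each library left out in turn. Of the 10 members 4 were called at 6 against 0 µM, 2 with only those doses and 0 without the 3 libraries. The shares of all tested genes called there were 8.24%, 6.91% and 4.2%. At 6 against 2 µM 1 member instead of 0 was called with DESeq2, limma-voom, no count filter, a mean count of at least 50 and only the 2 doses. In those fits 2.77%, 1.48%, 1.36%, 1.71% and 2.01% of all tested genes were called, against 1.11% in the main fit. With 1 library left out, 0 to 1 members were called at 2 against 0 µM, 1 to 4 at 6 against 0 µM and 0 to 1 at 6 against 2 µM. The shares of all tested genes in those fits were 0.645 to 2.97%, 5.58 to 8.14% and 0.495 to 1.57%.

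At 2 against 0 µM the immunoglobulin and co-receptor list gave 1 call instead of 2 with upper-quartile scaling, with the replicate block, with only the 2 doses and without the 3 libraries (0 to 2 with 1 library left out). The integrin list gave 1 instead of 2 with upper-quartile scaling, the replicate block and without the 3 libraries, and 0 with only the 2 doses (0 to 2 with 1 library left out). The myogenic factors gave 3 calls instead of 1 with DESeq2 and 2 with no count filter or without the 3 libraries (0 to 2). The cadherin list gave 1 instead of 0 with no count filter or without the 3 libraries (0 to 1), the ferlin list 1 instead of 0 with no count filter (0 to 1), and the actin list gave 0 to 1 with 1 library left out. Over all tested genes 2.35% were called there in the main fit, 1.98% with upper-quartile scaling and 1.7% with the replicate block. The share was 2.05% with only the 2 doses, 2.73% without the 3 libraries, 4.63% with DESeq2 and 2.14% with no count filter.

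At 6 against 0 µM the integrin list gave 4 calls instead of 2 with upper-quartile scaling, DESeq2 and a mean count of at least 50 (2 to 3 with 1 library left out). The actin list gave 1 instead of 4 with upper-quartile scaling and without the 3 libraries, and 2 with the replicate block and with only the 2 doses (1 to 5). The ferlin list gave 3 instead of 5 with only the 2 doses and 1 without the 3 libraries (2 to 6). The myogenic factors gave 5 instead of 8 without the 3 libraries (7 to 8). Over all tested genes 7.86% were called there with upper-quartile scaling, 11.4% with DESeq2, 11.2% with a mean count of at least 50 and 7.2% with the replicate block. With 1 library left out, the cadherin list gave 0 to 2 calls and the immunoglobulin list 2 to 4. At 6 against 2 µM the immunoglobulin list gave 1 instead of 0 with DESeq2, and the myogenic factors 2 instead of 1 with DESeq2 and 0 without the 3 libraries (0 to 1 with 1 library left out, as for the cadherin list).

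The values whose sign turned were called in no fit. At 2 against 0 µM Mymx was -0.010 with limma-voom and -0.047 without the 3 libraries (-0.048 to 0.21 with 1 library left out). Myof was -0.0079 with upper-quartile scaling (-0.0099 to 0.039), and Cdon ran between -0.030 and 0.046 with 1 library left out. At 6 against 2 µM Itgb1 was 0.0016 with RLE scaling and with DESeq2, 0.0022 with upper-quartile scaling, 0.00091 with no count filter, 0.0021 with only the 2 doses and 0.0082 without the 3 libraries (-0.0085 to 0.013). With 1 library left out there, Mymk ran between -0.38 and 0.056 and Myof between -0.0096 and 0.026. The Mymk to Mymx log2 ratio at 6 against 0 µM was -0.027 with 2 counts added (-0.33 to 0.30 with 1 library left out).

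Same-numbered libraries did not deviate together over all tested genes (12 correlations between -0.03 and 0.04). A correlation over all genes cannot exclude a pairing that touches only some of them, and the labels name no pairing. With the numbers as a replicate block, 648 genes were called higher and 506 lower at 6 against 0 µM. Without the block these counts were 735 and 587, and 4 members were called in both fits. The block ended the calls of Boc (adjusted p = 0.0709) and Cd9 (0.0529) at 2 against 0 µM and of Diaph3 (0.0525) and Dnm2 (0.0559) at 6 against 0 µM. Upper-quartile scaling ended those of Boc (0.0645) and Tln1 (0.0648) at 2 against 0 µM and of Diaph3 (0.054), Dnm2 (0.0672) and Ncam1 (0.0517) at 6 against 0 µM. The cause of these changes was not tested. Mymx had 11 to 55 counts per library.

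Over all tested genes, 258 were called higher and 119 lower at 2 against 0 µM, but 518 and 224 with DESeq2 and 438 and 193 with no count filter. Without 0 µM replicates 2 and 3 and 2 µM replicates 2 and 4 in turn, the counts were 139 and 64, 188 and 56, 157 and 56, and 72 and 34. At 6 against 0 µM, 408 and 302 were called without the 3 libraries. At 6 against 2 µM the counts of 90 and 88 became 229 and 216 with DESeq2, 177 and 224 with no count filter and 174 and 133 with only the 2 doses. With any 1 of 2 µM replicates 2, 3 and 4 or 6 µM replicates 1, 3 and 4 left out, 45 to 57 were called higher and 33 to 50 lower there.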
